A study of Rattus norvegicus with 6 samples.

Results

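The core of the integrated stress response was followed here through 10 genes, Atf4, Atf3, Atf5, Ddit3, Trib3, Chac1, Ppp1r15a, Eif2ak3, Sesn2 and Ddit4, which were taken by name from the count tables of primary rat microglia. All 10 were found among the 23139 genes listed, and all 10 passed the filter on low counts that left 11977 genes for testing. With LPS/siponimod, 8 of the 10 genes were upregulated compared to LPS and 0 were downregulated, while 13.6% of all genes tested were called higher and 11.7% lower. The pseudokinase gene Trib3 was 27.2-fold higher, the phosphatase subunit gene Ppp1r15a 24.6-fold, the glutathione-degrading enzyme gene Chac1 11.8-fold and Ddit3, which encodes the transcription factor CHOP, 8.62-fold. Atf4, the transcription factor gene at the centre of the response, was 5.44-fold higher. Atf3 and Ddit4 did not pass the test, with a log2 fold change (FC) of 0.62 and -1.08, respectively. Since RNA of whole cultures was sequenced, more cells with a transcript and more transcript per cell cannot be told apart.

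Cells came from cortices of Wistar rats at postnatal day 1. They were shaken off mixed cultures and sorted with CD11b/c microbeads. Starting 1 day later, all cells received lipopolysaccharide (LPS, a bacterial cell wall component that activates microglia) at 100 ng/mL, together with either the solvent DMSO (LPS) or 50 µM siponimod, a modulator of sphingosine-1-phosphate receptors (LPS/siponimod). Each condition was sequenced as 3 libraries of polyA-selected mRNA, described as biological replicates. The number of animals behind a culture and the time of RNA harvest for sequencing are not given in the sources used here, so that p-values measure the spread between these libraries, which may be partly technical. Unstimulated cells and cells with siponimod but without LPS were not analysed here, and every value compares LPS/siponimod with LPS.

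The integrated stress response slows protein synthesis when a kinase phosphorylates the initiation factor eIF2. PERK senses unfolded protein in the endoplasmic reticulum (ER), GCN2 amino acid shortage, PKR double-stranded RNA and HRI heme shortage as well as mitochondrial stress. While most mRNAs are then translated less, those of ATF4, ATF5, CHOP and the phosphatase subunit GADD34 are translated more, because of short open reading frames before their coding sequence. ATF4 and CHOP switch on genes for amino acid supply and for recovery of translation, and, if stress lasts, for cell death. Translation and phosphorylation cannot be read from the mRNA values given here.

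A response element shared by C/EBP and ATF factors is the textbook binding site of ATF4 dimers, and the promoters of the 3 genes with the largest FC are shown because they carry letters of this or a related element. Sequences cover 250 bases before to 50 bases after the start in RefSeq, assembly GRCr8, which is not the assembly used for mapping. A promoter was listed for 9 of the 10 genes, Atf3 being the exception. Within these 100-base stretches, given 5′ to 3′ on the strand of the gene, capitals mark the motif matches.
Chac1, chr3:126795886-126795985, plus strand, 245 to 146 bases before the start: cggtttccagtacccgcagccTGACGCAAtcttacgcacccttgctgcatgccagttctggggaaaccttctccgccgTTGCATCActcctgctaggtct
Trib3, chr3:161275534-161275633, minus strand, 100 to 1 bases before the start: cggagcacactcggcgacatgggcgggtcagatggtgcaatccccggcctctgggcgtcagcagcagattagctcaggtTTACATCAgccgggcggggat
Ppp1r15a, chr1:105139597-105139696, minus strand, 100 to 1 bases before the start: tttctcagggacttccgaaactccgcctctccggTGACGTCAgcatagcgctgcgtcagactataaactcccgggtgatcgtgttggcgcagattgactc
The letters TGATGNAA, searched on both strands, were found in Chac1 (167 bases before the start) and Trib3 (21 bases before it), on the opposite strand in both, and in 3.98% of 33469 promoters or 1.9% of the 9003 that belong to tested genes. The cAMP response element TGACGTCA was found in Ppp1r15a, 66 bases before the start, and in 1.83% of all promoters or 3.28% of those of tested genes. The form TGANGCAA, added after the promoters had been read, occurred in Chac1 at 224 and 167 bases before the start, where the latter match is the same as for TGATGNAA, and in 3.65% of all promoters or 3.22% of those of tested genes. An ER stress element (CCAAT, 9 bases, CCACG) was in none of the 9 promoters and in 0.0657% of all promoters or 0.167% of those of tested genes. A match describes these letters in this window and neither a bound site nor a cause of the values that follow.

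The depth of LPS replicates 1, 2 and 3 was 39484979, 38301365 and 38080379 counts, that of LPS/siponimod replicates 1, 2 and 3 was 46643859, 43336006 and 38857441. The 10 genes together held 0.0542%, 0.0410% and 0.0453% of these counts with LPS, compared to 0.283%, 0.209% and 0.269% with LPS/siponimod. Values are given as raw counts or as CPM (counts scaled to the library size) after TMM scaling, as mean ± SD of n = 3 libraries. A gene was called a differentially expressed gene (DEG) at an adjusted p of at most 0.05 in edgeR's quasi-likelihood test, with Benjamini-Hochberg adjustment over all genes tested, and an FC of at least 1.5. There were 3036 DEGs, 1633 higher and 1403 lower with LPS/siponimod. Leaving out single libraries moved this number to 1743 (LPS replicate 1), 651 (LPS replicate 2), 783 (LPS/siponimod replicate 1) and 1035 (LPS/siponimod replicate 3). All genes tested had a median log2 FC of -0.02. No transcript lengths were used, so that CPM are not levels per length and the members were not ranked by them. Where a marker is named for the highest CPM of its list, this refers to its share of the counts. An exact permutation test with 3 against 3 libraries cannot go below p = 0.10, the value reached by each of the 8 upregulated genes.

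The libraries numbered 3 stood apart in some markers of other neural cells. Olig1, a transcription factor gene of the oligodendrocyte lineage, had 1, 5 and 515 counts with LPS against 2, 3 and 17 with LPS/siponimod, and Pdgfra, a receptor gene of oligodendrocyte precursors, 5, 4 and 284 against 1, 4 and 81. Map2, a neuronal cytoskeleton gene, had 0, 3 and 162 counts with LPS against 1, 1 and 115 with LPS/siponimod. These genes were thus near the floor in the libraries numbered 1 and 2 of both conditions. The 8 oligodendrocyte lineage markers summed to 5.34, 5.37 and 36.0 CPM with LPS against 11.4, 10.3 and 22.6 CPM with LPS/siponimod, with at most 1 count of Mog. Their member with the highest mean CPM, the myelin gene Mbp, did not follow the numbers, with 149, 161 and 84 counts against 470, 397 and 652. Mbp was the 1 of 3 tested that was called, and it was higher with LPS/siponimod (log2 FC 1.74, edgeR adjusted p = 0.0172). The 7 neuron markers summed to 1.73, 1.04 and 11.5 CPM against 4.39, 5.87 and 15.4 CPM, mostly Tubb3, the only one tested, which was not called (adjusted p = 0.251) but was called higher with the replicate number as a further term of the fit (the replicate block). All 8 upregulated genes kept their call without both libraries numbered 3, an alternative chosen after the data were examined. That fit called 11.1% of all genes tested higher and 8.17% lower.

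The microglial identity of the cells was visible in all 6 libraries. The 14 microglia markers were all measured, with the highest mean CPM for the receptor gene Csf1r, and summed to 9700, 8087 and 5611 CPM with LPS and to 4666, 5676 and 3540 CPM with LPS/siponimod, so that the groups overlapped. Of the 14, 1 was called higher, Sall1, and 3 lower (1 and 6 with the replicate block, which called 17.7% of all genes higher and 16.4% lower), with a median log2 FC of -0.55. The 3 lower ones were the integrin gene Itgam (log2 FC -0.87), Aif1, which encodes IBA1 (-1.88), and the fractalkine receptor gene Cx3cr1 (-3.65). Cx3cr1 had few counts already with LPS, at 69, 202 and 35 against 3, 21 and 4. Astrocyte markers summed to 48.4, 24.2 and 24.98 CPM with LPS against 29.3, 28.8 and 59.6 CPM with LPS/siponimod, mostly Slc1a3. Of 4 tested, 1, Aldoc, was called lower. The sum hides that Gfap and Slc1a2, both left out by the filter, were highest in LPS replicate 3. Gfap had 1, 2 and 88 counts with LPS against 0, 0 and 1 with LPS/siponimod, and Slc1a2 5, 3 and 82 against 4, 4 and 22. Slc1a3 differed from them, with 1500, 775 and 574 counts against 1221, 1163 and 2285. Fibroblast markers stayed at 12 CPM or less in every library (6.05, 4.75 and 3.98 against 11.9, 4.64 and 8.66 CPM), with the highest mean CPM for Dcn, which was called higher as 1 of 5 tested. The 5 endothelial markers measured summed to 157, 203 and 82.2 CPM against 37.5, 80.4 and 26.4 CPM, while Kdr had 0 counts in all 6 libraries. The highest mean CPM was that of Cdh5. None of their 4 tested genes was called, and 2, Cdh5 and Pecam1, were called lower with the replicate block. The part of these markers in the stress response values was not tested.

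**Figure D1:**
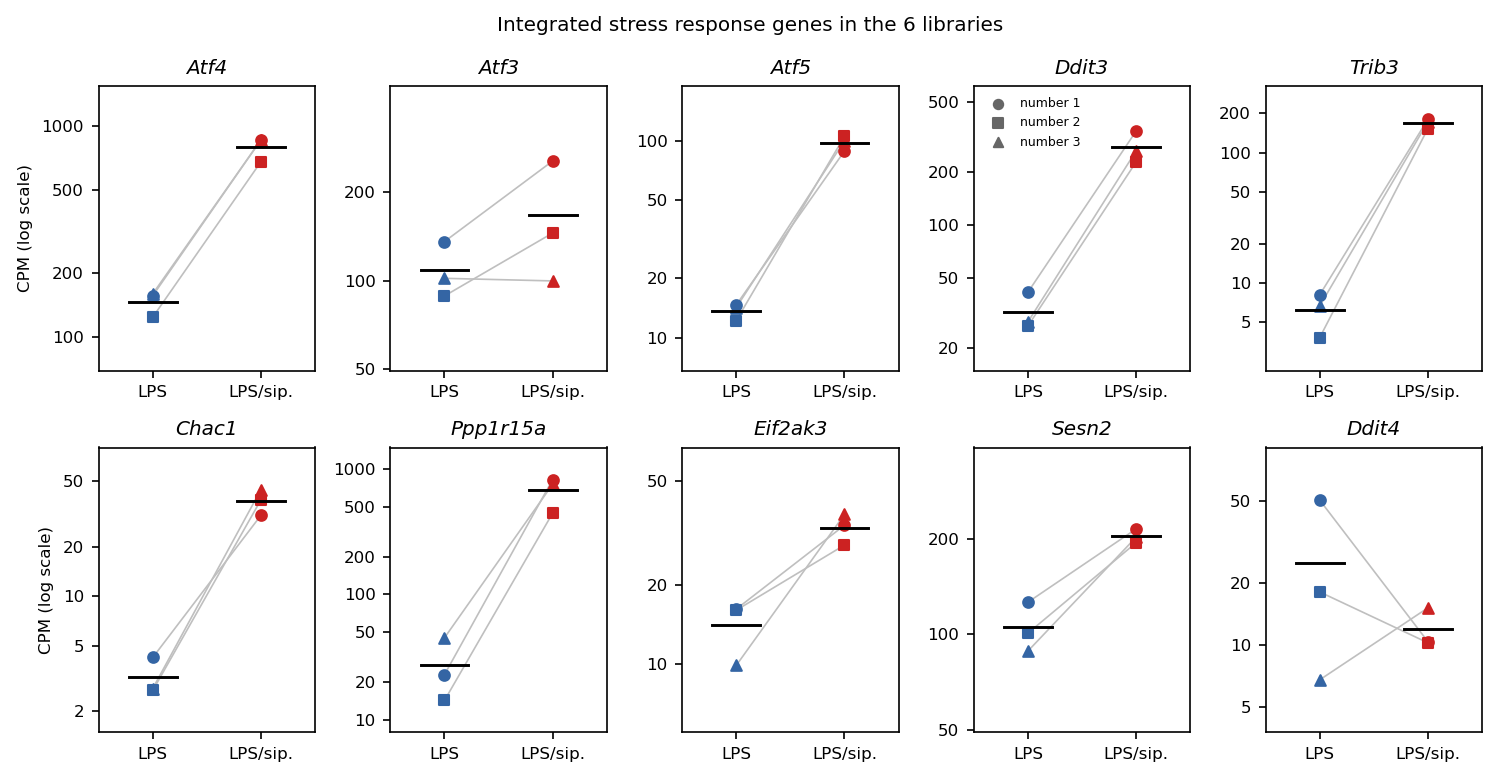
CPM after TMM scaling (log scale) of each of the 10 genes in the 3 LPS and the 3 LPS/siponimod libraries. Points are libraries, marker shapes give the replicate number, grey lines join libraries of the same number and black bars are group means. For 8 genes all LPS/siponimod libraries lay above all LPS libraries, whereas the groups overlapped for Atf3 and Ddit4.

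Of the members that start the response, Eif2ak3 encodes PERK, the eIF2 kinase of the ER membrane. Counts of Eif2ak3 in replicates 1, 2 and 3 were 600, 618 and 367 under LPS, compared to 1571, 1268 and 1524 under LPS/siponimod. LPS replicate 3 was the lowest, and the groups did not overlap. The level rose from 14.04 ± 3.60 to 33.1 ± 4.42 CPM (n = 3 each), a 2.36-fold change (log2 FC 1.24, standard error 0.23, edgeR adjusted p = 0.0148). This call depended on single libraries: the adjusted p was 0.0591 without LPS replicate 2, 0.0683 without LPS/siponimod replicate 1 and 0.0568 without LPS/siponimod replicate 3, at log2 FC of 1.36, 1.21 and 1.15.

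Atf4 encodes the transcription factor on which the arms of the response converge. Its 5810, 4776 and 5944 counts with LPS compared to 40037, 30255 and 35271 with LPS/siponimod. Replicate 2 was the lowest in both conditions, and the lowest LPS/siponimod library was still 4.24 times the highest LPS library in CPM. Atf4 rose from 147 ± 19.9 to 799.9 ± 105.7 CPM, which corresponded to a log2 FC of 2.44 (standard error 0.19, edgeR adjusted p = 0.00321). Within the pairs of same-numbered libraries the log2 difference was 2.46, 2.45 and 2.43, the narrowest range among the 10 genes.

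Ddit3 encodes CHOP, a C/EBP-related factor known for its part in cell death after long ER stress. The LPS libraries held 1540, 1030 and 1048 counts and the LPS/siponimod libraries 15838, 10160 and 10792, replicate 1 being the highest in both conditions. The CPM rose from 32.2 ± 8.17 to 277 ± 57.9 (log2 FC 3.11, standard error 0.26, edgeR adjusted p = 0.00360), without overlap of the groups.

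Atf5, a relative of Atf4 known for the mitochondrial stress response, had 544, 471 and 529 counts with LPS, compared to 4110, 4692 and 4091 with LPS/siponimod. Libraries of a condition lay close together, and the groups were far apart. It rose 7.13-fold, from 13.7 ± 1.31 to 97.8 ± 8.51 CPM (log2 FC 2.83, standard error 0.13, edgeR adjusted p = 0.00174), and held rank 3 of all 11977 genes by p-value.

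Atf3, an early stress factor of the same family that is also known to limit inflammatory gene expression in macrophages, was the member of the transcription factor group that was not called. The LPS libraries held 5033, 3417 and 3783 counts of Atf3, the LPS/siponimod libraries 11872, 6485 and 4091. LPS/siponimod replicate 1 was far above all others, and LPS/siponimod replicate 3 lay within the range of the LPS libraries. The mean was 109 ± 24.3 CPM with LPS and 167 ± 80.1 CPM with LPS/siponimod (log2 FC 0.62, standard error 0.36, edgeR adjusted p = 0.236). Within pairs the log2 difference was 0.91, 0.71 and -0.03. Without LPS/siponimod replicate 1 the log2 FC was 0.17 (adjusted p = 0.722), and without both libraries numbered 3 it was 0.84 (adjusted p = 0.153).

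Trib3 encodes a pseudokinase that is induced by ATF4 and CHOP and feeds back on them. From 301, 147 and 248 counts with LPS, Trib3 reached 8380, 6831 and 7069 with LPS/siponimod. Replicate 2 was the lowest in both conditions, and the lowest LPS/siponimod library was 18.8 times the highest LPS library in CPM. Trib3 rose from 6.20 ± 2.19 to 169 ± 14.1 CPM, with the largest log2 FC of the 10 genes (4.76, standard error 0.31, edgeR adjusted p = 0.00241).

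Ppp1r15a encodes GADD34, which directs protein phosphatase 1 to eIF2 and so ends the block of translation. The 848, 549 and 1673 counts of the LPS libraries compared to 38270, 19867 and 31003 in those with LPS/siponimod. The LPS libraries differed by up to 3.16 times in CPM, replicate 3 being the highest, but all of them stayed far below the LPS/siponimod libraries. The level was 27.4 ± 15.9 CPM with LPS and 675 ± 202 CPM with LPS/siponimod (log2 FC 4.62, standard error 0.53, edgeR adjusted p = 0.00647). Without LPS replicate 3 the log2 FC was 5.19.

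Chac1, the enzyme that breaks down glutathione inside the cell, is a known target of ATF4 and CHOP. With LPS 157, 103 and 102 counts were found, with LPS/siponimod 1440, 1718 and 1822. LPS replicate 1 was the highest of its group and LPS/siponimod replicate 1 the lowest of its group, and the groups did not overlap. The CPM rose from 3.22 ± 0.88 to 37.97 ± 6.74 (log2 FC 3.56, standard error 0.26, edgeR adjusted p = 0.00295).

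Sesn2 and Ddit4 both encode stress-induced inhibitors of mTORC1, the kinase complex that promotes growth, and they differed in their values. Sesn2, which encodes the leucine sensor sestrin 2, had 4679, 3890 and 3297 counts with LPS, compared to 9960, 8664 and 8282 with LPS/siponimod. The LPS/siponimod libraries were close together and all above the LPS libraries. Sesn2 rose 1.93-fold, from 105 ± 19.1 to 203 ± 10.2 CPM (log2 FC 0.95, standard error 0.16, edgeR adjusted p = 0.0123). It was not past the threshold without LPS replicate 2 (log2 FC 0.93, adjusted p = 0.0654) or without LPS/siponimod replicate 1 (0.90, adjusted p = 0.0619).

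Ddit4, which encodes REDD1 and is also known as a target of glucocorticoids and hypoxia, had 1875, 698 and 252 counts with LPS, compared to 483, 458 and 622 with LPS/siponimod. The LPS libraries spread over 7.46 times in CPM, the LPS/siponimod libraries over 1.48 times, and the latter lay inside the range of the former. The mean was 25.2 ± 22.7 CPM with LPS and 11.9 ± 2.80 CPM with LPS/siponimod (log2 FC -1.08, standard error 0.68, edgeR adjusted p = 0.266). Pairs of same-numbered libraries did not share a direction, with log2 differences of -2.28, -0.82 and 1.16. Without LPS replicate 1 the log2 FC was -0.05 (adjusted p = 0.949), without LPS replicate 3 it was -1.52 (adjusted p = 0.0511) and without both libraries numbered 3 it was -1.73 (adjusted p = 0.0747).

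**Figure D2:**
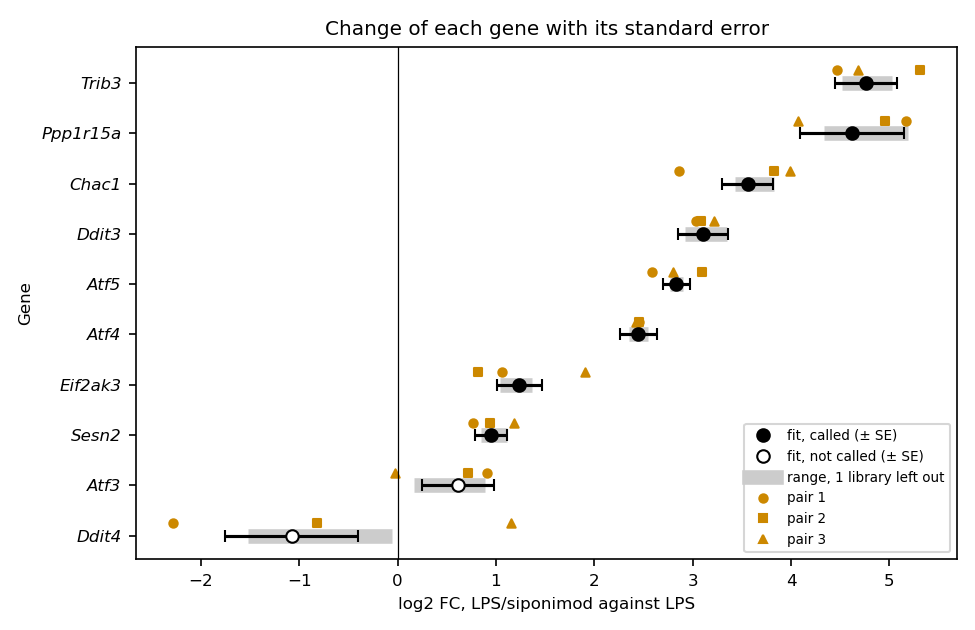
Log2 FC of LPS/siponimod against LPS for the 10 genes, as fitted (black points with their standard error, open where not called), within each pair of same-numbered libraries (orange symbols) and over the fits that left out 1 library in turn (grey bars). The fitted values run from -1.08 for Ddit4 to 4.76 for Trib3, and Atf3 and Ddit4 are the genes whose pairs lie on both sides of 0.

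The median log2 FC of the 10 genes was 2.64, and within pairs 1, 2 and 3 it was 2.52, 2.77 and 2.62, while the median of all genes tested lay between -0.02 and 0.01 in these pairs. The 8 upregulated genes had all 3 LPS/siponimod libraries above all 3 LPS libraries, a pattern found in 25.3% of all genes tested. Without LPS replicate 2, 6 of the 8 genes were called while 3.72% of all genes tested were called higher, and without LPS/siponimod replicate 1 these values were 6 and 4.7%. With the replicate block, 8 of the 10 genes were called higher and 0 lower, beside 17.7% and 16.4% of all genes. By size of change the order was Trib3, Ppp1r15a, Chac1, Ddit3, Atf5, Atf4, Eif2ak3, Sesn2, Atf3 and Ddit4. Many neighbours in this order were not separated beyond the spread of the pairs. Trib3 and Ppp1r15a differed by 0.09 ± 0.70 in their log2 change (SD, n = 3 pairs), Chac1 and Ddit3 by 0.44 ± 0.54, and Eif2ak3 and Sesn2 by 0.30 ± 0.42. In contrast, Atf4 changed more than Eif2ak3 in all 3 pairs (1.18 ± 0.59) and Atf5 more than Atf4 (0.39 ± 0.26). Ppp1r15a also changed more than Chac1 in all 3 pairs, but by 2.31, 1.14 and 0.075 (1.17 ± 1.12), a spread close to the mean. These are values without a test.

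Across the 6 libraries, log2 CPM of the 8 upregulated genes correlated with each other with Pearson's r between 0.86 and 1.00 (median 0.97 over 28 pairs of genes). These values rest largely on the difference between the conditions, since after removal of the group means r ranged from -0.51 to 0.87 with a median of 0.38. Over the same 6 libraries r with Atf4 was 0.55 for Atf3 and -0.35 for Ddit4. The genes with the pattern most like Atf4 were Clec4d, a C-type lectin receptor gene (r = 0.9998), the membrane protein gene Emp1 (0.9994), the transporter gene Slc6a12 (0.9991), AI467606 (0.9988) and Zfand2b (0.9987). All 5 were called higher. The size of their changes varied widely, since the log2 FC was 6.57 for Clec4d, 6.12 for Emp1 and 0.81 for Zfand2b. Emp1, for instance, had 313, 147 and 320 counts with LPS against 25039, 13351 and 25103 with LPS/siponimod, again with replicate 2 as the lowest of both conditions. The genes most like Ddit4 were Acad8 (r = 0.9888), Dbr1 (0.9841), AC135826.1 (0.9807), Rnf217 (0.9804) and the phagocytosis receptor gene Mertk (0.9796), and 0 of these 5 were called. Mertk had 15469, 10089 and 5222 counts with LPS against 6982, 7339 and 9208 with LPS/siponimod, and therefore the same order of the LPS libraries as Ddit4.

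**Figure D3:**
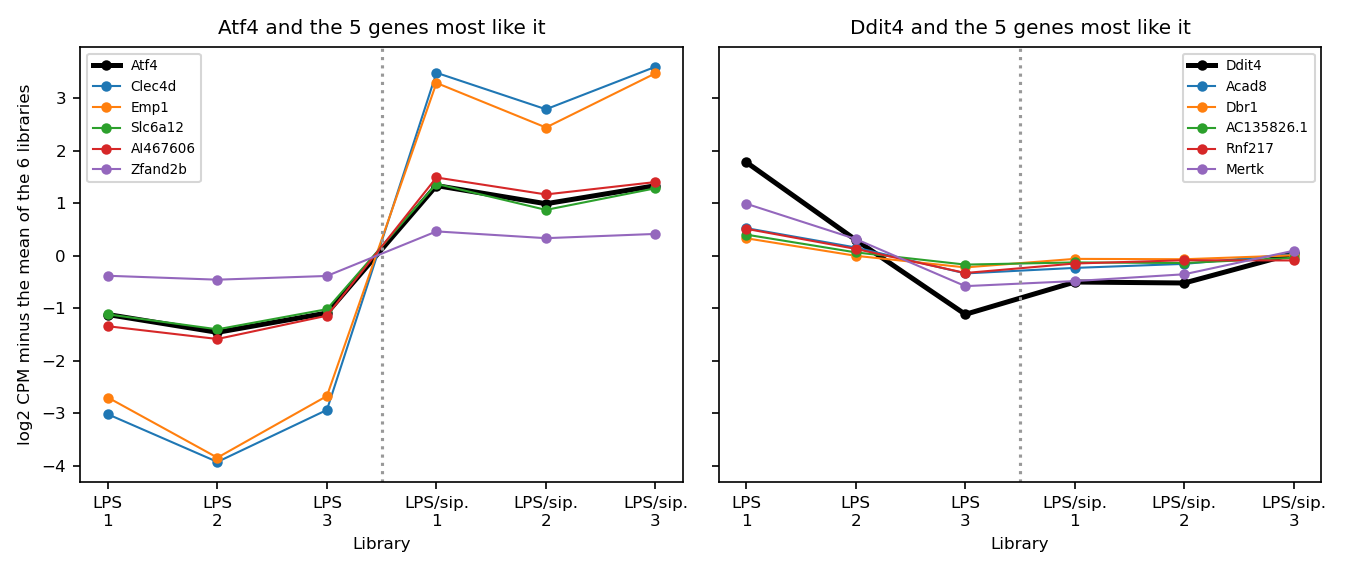
Log2 CPM in the 6 libraries of Atf4 with the 5 genes most like it and of Ddit4 with the 5 genes most like it, each set to its mean over the libraries. Lines only guide the eye, as replicates have no order. Atf4 and its companions step up between the conditions, whereas Ddit4 and its companions are highest in LPS replicate 1 and lowest in LPS replicate 3, with the LPS/siponimod libraries between them.

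The other genes of the pathway were examined by lists of well-known members, of which those called are given beside 13.6% called higher and 11.7% called lower among all genes, or 17.7% and 16.4% with the replicate block. Numbers called without 1 library stand beside another share of all genes called in either direction, which was 25.3% with all libraries, 13.9%, 5.16% and 30.3% without LPS replicates 1, 2 and 3, and 6.22%, 23.4% and 8.5% without LPS/siponimod replicates 1, 2 and 3. Among 12 genes for eIF2 kinases, eIF2, its exchange factor eIF2B and the separate initiation factors eIF2A and eIF2D, 1 was called higher and 1 lower, with a median log2 FC of 0.12. Eif2ak2, which encodes the interferon-induced kinase PKR, had 13608, 13778 and 11545 counts with LPS against 5227, 7236 and 4722 with LPS/siponimod. All LPS/siponimod libraries were below all LPS libraries (log2 FC -1.41, standard error 0.19, edgeR adjusted p = 0.00779). Eif2ak1 (HRI) had a log2 FC of -0.11 (adjusted p = 0.558) and Eif2ak4 (GCN2) of 0.14 (adjusted p = 0.700). Thus the 4 kinase genes comprised 1 that rose, Eif2ak3, 1 that fell and 2 that did not pass the test. The one called higher was Eif2d (log2 FC 0.86, adjusted p = 0.00655), whose product eIF2D is a factor apart from eIF2 and eIF2B, so that none of the tested genes for subunits of eIF2 or eIF2B was called.

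Of 10 genes that regulate the eIF2 phosphatase or its kinases, 3 were called higher and 0 lower, with a median log2 FC of 0.12. The 3 genes were Ppp1r15b, which encodes CReP, the constitutive counterpart of GADD34 (log2 FC 0.68, adjusted p = 0.00986), Impact, an inhibitor of GCN2 activation (1.38, adjusted p = 0.0123), and Dnajc3, which encodes the PERK inhibitor p58IPK (1.02, adjusted p = 0.0186). Dele1 and Oma1, which relay mitochondrial stress to HRI, had a log2 FC of -0.14 and 0.01 (adjusted p = 0.477 and 0.987). The number called in this list was 0 without LPS replicate 2 and 1 without LPS/siponimod replicate 1.

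Possible dimer partners of ATF4 and CHOP among the ATF, CREB, C/EBP, AP-1 and related bZIP families included 9 of 20 tested genes that were called higher and 0 called lower (10 and 2 with the replicate block, at 17.7% and 16.4% of all genes), with a median log2 FC of 0.63. The smallest p-values belonged to the AP-1 subunit gene Jun (log2 FC 1.83, adjusted p = 0.00655), Nfe2l1 (1.14, adjusted p = 0.00692) and Fosl2 (2.53, adjusted p = 0.00834). Cebpb, which encodes a known partner of both ATF4 and CHOP, was higher as well (0.95, adjusted p = 0.0321). Cebpd had a log2 FC of -1.16 that missed the threshold (adjusted p = 0.0510) and was called lower with the replicate block. The number called was 4 without LPS replicate 2, without LPS/siponimod replicate 1 or without LPS/siponimod replicate 3.

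Among these lists, the known targets of ATF4 and CHOP had the largest share called higher. Of 50 tested, 32 were called higher and 0 lower (39 and 0 with the replicate block). The log2 FC was above 0 for 47 of them and had a median of 1.73. The enzyme gene of mitochondrial folate metabolism Mthfd2 was 2.18 higher on the log2 scale (adjusted p = 0.00174), from 28.5 ± 1.16 to 129 ± 6.54 CPM. The genes of seryl- and alanyl-tRNA synthetase, Sars1 and Aars1, followed with log2 FC of 2.26 and 2.08 (adjusted p = 0.00295 for both). The 3 genes with a negative log2 FC, Jdp2 (-0.38, adjusted p = 0.470), Atg5 (-0.13, adjusted p = 0.409) and Ero1a (-0.03, adjusted p = 0.949), did not pass the test. Without LPS replicate 2 the number called among the 50 was 21.

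**Figure D4:**
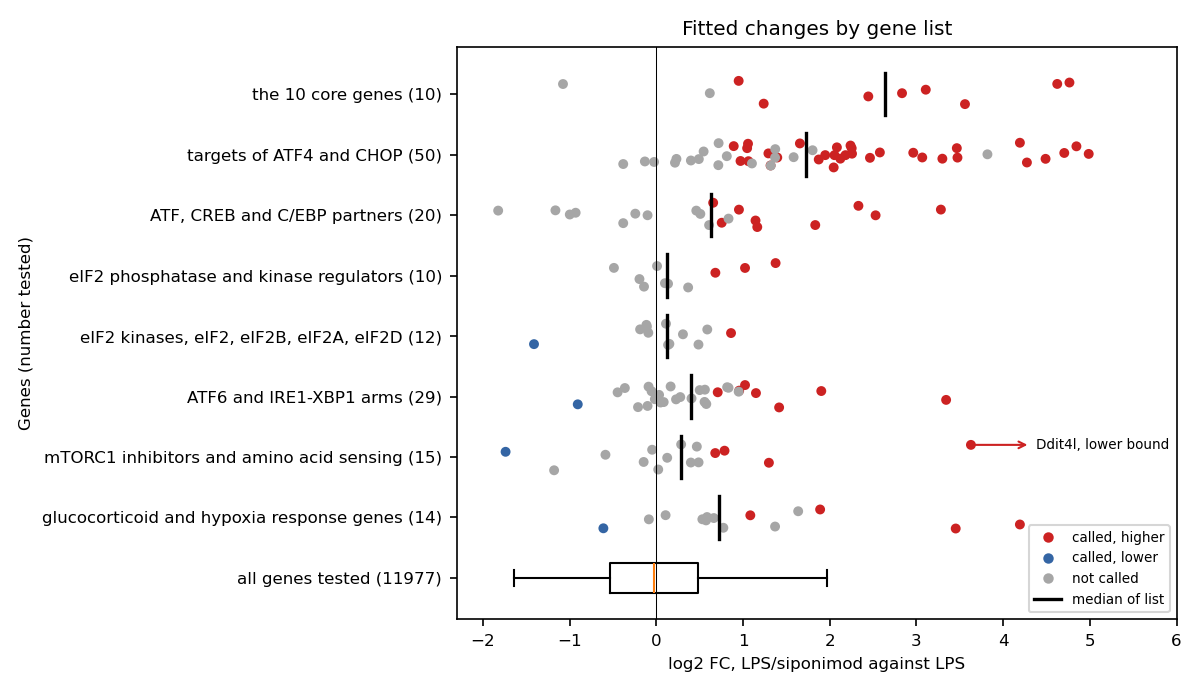
Fitted log2 FC of LPS/siponimod against LPS for each tested gene of the 10 core genes and of 7 gene lists, with the number tested in brackets. Points are genes, coloured when called, black bars are medians, and the box gives the quartiles of all genes tested with whiskers at the 5th and 95th percentile. The medians are 2.64 for the core and 1.73 for the ATF4 and CHOP targets. Ddit4l, which had 0 counts in all LPS libraries, is drawn at its lower bound.

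The ER has 2 further stress arms, led by ATF6 and by IRE1 with its product XBP1, which raise chaperones and degradation factors. Of their 29 genes, 7 were called higher and 1 lower (10 and 1 with the replicate block), with a median log2 FC of 0.41. Ern1, which encodes IRE1 (log2 FC 1.90, adjusted p = 0.00374), the ER co-chaperone gene Dnajb9 (3.34, adjusted p = 0.00416) and the translocon gene Sec61a1 (1.42, adjusted p = 0.00994) had the smallest p-values. The chaperone gene Calr was lower (-0.91, adjusted p = 0.0215). Hspa5, which encodes the main ER chaperone BiP, had a log2 FC of 0.95 that missed the threshold (adjusted p = 0.0670) and was past it with the replicate block (adjusted p = 0.0292), and Hsp90b1 had 0.03 (adjusted p = 0.924). The number called in the list was 2 without LPS replicate 2, 3 without LPS/siponimod replicate 1 and 3 without LPS/siponimod replicate 3. These fits called 5.16%, 6.22% and 8.5% of all genes. In them all genes of the list that were called were higher, and Calr was not called.

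Paralogs of the members, to which reads could be misassigned where sequences are alike, had their own patterns. Ddit4l, the paralog of Ddit4, had 0 counts in the 3 LPS libraries and 31, 60 and 39 with LPS/siponimod, which was at least 12.4-fold higher when the LPS mean is set at 3 counts per library (adjusted p = 0.00972). Sesn3 fell by 1.74 on the log2 scale (adjusted p = 0.0269), the opposite direction to Sesn2, and Sesn1 had a log2 FC of -1.18 (adjusted p = 0.0679). Trib1 also fell, by 1.46 (adjusted p = 0.0235), the opposite direction to Trib3, and Trib2 was left out by the filter with 2, 2 and 190 counts against 0, 2 and 6. Chac2 rose by 0.92 (adjusted p = 0.0465) and Ppp1r15b by 0.68, in the direction of their paralogs. In all, 3 of 6 tested paralogs were called higher and 2 lower. Ddit4l passed the low-count filter only through its LPS/siponimod libraries. A filter at a mean of 1 CPM left Ddit4l out. With that filter 2 paralogs were called higher and 2 lower, beside 14% and 12.5% of all genes. No paralog was called lower without LPS replicate 1, LPS replicate 2, LPS/siponimod replicate 1 or LPS/siponimod replicate 3. The number called of these 6 was 2 without LPS replicate 1, 1 without LPS replicate 2, 2 without LPS/siponimod replicate 1 and 2 without LPS/siponimod replicate 3. It was 3 without both libraries numbered 3, in a fit that called 19.3% of all genes, against 25.3% with all libraries.

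Since Sesn2 and Ddit4 act on mTORC1, other inhibitors and amino acid sensors of this complex were read from the same fit. Of 15 tested genes, 4 were called higher and 1 lower, with a median log2 FC of 0.29. Prkaa1, which encodes a catalytic subunit of AMPK (log2 FC 0.79, adjusted p = 0.00859), Ddit4l and Flcn, the folliculin gene (1.30, adjusted p = 0.0112), were higher with the smallest p-values, and Sesn3 was the lower one. The number called was 3 without LPS replicate 1, 2 without LPS replicate 2, 2 without LPS/siponimod replicate 1 and 3 without LPS/siponimod replicate 3. In these fits all genes called were higher, and Sesn3 was not called. With the filter at a mean of 1 CPM, which left out Ddit4l, 3 were called higher and 1 lower, beside 14% and 12.5% of all genes.

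Ddit4 responds to glucocorticoids and hypoxia besides ATF4. Pooled in a single list that does not tell these responses apart, 14 other genes known for either were tested. Of these, 4 were called higher and 1 lower, with a median log2 FC of 0.72, and with the replicate block 8 and 1, beside 17.7% and 16.4% of all genes. The transcription factor gene Klf9 (log2 FC 3.45, adjusted p = 0.00589), the angiogenic growth factor gene Vegfa (4.19, adjusted p = 0.0112), which is also an ATF4 target, and Tsc22d3, which encodes the glucocorticoid-induced leucine zipper GILZ (1.89, adjusted p = 0.0130), were higher. The pyruvate dehydrogenase kinase gene Pdk1 was lower (-0.61, adjusted p = 0.0389). Among the fits without 1 library, a gene of this list was called lower only in the one without LPS replicate 3. The number called was 2 without LPS replicate 2 and 3 without any 1 of the LPS/siponimod libraries.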

How the data were processed

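The authors prepared polyA-selected libraries, demultiplexed single reads with bcl2fastq 2.20.0.422, mapped them to mRatBN7.2 in the CLC Genomics Workbench and deposited total read counts per gene, without normalization. The handling of multi-mapped reads and of strand is not given in the sources used here. One library held 1 row without a name and with 0 counts, which was left out.

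Counts were analysed in R 4.3.3 with edgeR 4.0.16 (filterByExpr at 10 counts and a total of 15, TMM, and a quasi-likelihood fit of the condition without covariates). Standard errors are the size of the log2 FC divided by the square root of the F statistic. Values within pairs used a prior count of 2. Bounds against 0 used 3 counts per library and cover counting error only. The procedure was tested on simulated counts with known changes, drawn without an effect shared by libraries of the same number. It was not tested under such an effect. After removal of group means, same-numbered libraries correlated with 0.42, 0.545 and 0.611 over genes and differently numbered ones with -0.534 to 0.086. Since deviations from a group mean sum to 0, values above 0 for same numbers force values below 0 among different numbers. From the same-number values, and not from a statement of the authors, the numbers were treated as pairs. The replicate block (the number as a further term) was an alternative. Other alternatives were RLE, DESeq2 1.42.0, limma-voom (limma 3.58.1), the likelihood ratio test, other filters and each library left out.

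The members and lists were chosen with earlier results of these data known. Named were all members, the paralogs and eIF2 kinases, up to 3 genes per list and direction with the smallest p among those called, the 5 genes most like Atf4 and Ddit4, and of each marker list the gene with the highest mean CPM and those near 0. Chosen from their values, outside this rule, were Dele1, Oma1, Cebpb, Cebpd, Jdp2, Atg5, Ero1a, Hspa5, Hsp90b1, Itgam, Aif1, Cx3cr1, Aldoc, Gfap, Slc1a2, Sall1, Pecam1, Map2, Olig1 and Pdgfra.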

Additional observations from a re-analysis of the deposited data

How the results depend on the processing

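The 8 upregulated genes kept their direction in all 14 alternatives, and Atf4, Atf5, Ddit3, Trib3, Chac1 and Ppp1r15a were called in each of them. Eif2ak3 and Sesn2 lost their call only in fits without 1 library, over which the log2 FC ranged from 1.04 to 1.37 and from 0.84 to 1.12. Neither Atf3 nor Ddit4 was called in any alternative, and the replicate block changed no call of the 10 genes. The number of DEGs was 4074 with the replicate block and 3898 with DESeq2. In the fits without 1 library it ranged from 651 without LPS replicate 2 to 3713 without LPS replicate 3 (469 to 1941 higher and 182 to 1772 lower). Over the same fits the number called ranged from 0 to 3 for the eIF2 phosphatase and kinase regulators, 4 to 11 for the ATF, CREB and C/EBP partners, 1 to 5 for the paralogs, 21 to 34 for the ATF4 and CHOP targets, 2 to 9 for the ATF6 and IRE1 arms, 2 to 6 for the mTORC1 inhibitors and 2 to 6 for the glucocorticoid and hypoxia genes. The last list had 8 calls with DESeq2, 8 with the likelihood ratio test and 9 with the replicate block, against 5, in fits that called 32.5%, 29.8% and 34% of all genes, against 25.3%. The paralogs had 3 calls without both libraries numbered 3, against 5, in a fit that called 19.3% of all genes, against 25.3%. Fits with libraries left out hold fewer libraries, whereas DESeq2, the likelihood ratio test and the replicate block used all of them. The cause of the shifts was not tested. All members had at least 102 counts in each library, whereas Trib2 was too low to test.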
